A study of Mus musculus with 9 samples.

Results

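Stmn2, Stmn3, Gap43, Mapt, Nsg2 and Rnd2 are 6 genes that neurons switch on as they leave the cell cycle and extend their first processes. They were chosen by name, with their fold changes in these tables already known, and are 6 of the 1030 genes that appear in at least 1 of the 3 deposited comparisons. Polyadenylated RNA was sequenced from 9 mouse embryonic cortices of embryonic day 12, with 3 cortices per genotype taken from 2 litters. All embryos were Emx1 Cre/+, so that Cre recombinase is made from the locus of a dorsal telencephalic gene, and they differed in the zinc finger gene Zbtb7a. WT embryos were Zbtb7a +/+, cHet embryos were Zbtb7a fl/+ and cKO embryos were Zbtb7a fl/fl. A Cre-negative group was not analysed here, so whatever Emx1 Cre does by itself is common to all 3 groups. Cre is made only in the Emx1 lineage, and other cells of a dissected cortex keep their Zbtb7a alleles.

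A young cortical neuron rebuilds its cytoskeleton in order to migrate and to grow an axon. Stathmins bind free tubulin and favour microtubule disassembly, tau binds microtubules and stabilises them, and GAP-43 sits under the growth cone membrane. Around this stage the cortical wall holds mostly dividing radial glia beneath a thin layer of the first neurons.

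The values come from 3 tables of fold changes made by the authors, each limited to genes with an adjusted p under 0.05, which are called listed here. A log2 fold change compares the group named first with the other, and its standard error (SE) rests on 3 libraries per group. Levels in single libraries were not analysed here, so the spread between embryos is seen only through the SE, the depth is unknown, and the tissue label could not be checked against marker levels. Zbtb7a itself was listed in none of the 3 tables. The listed genes made up 1.60% of the 15465 genes tested for cHet against WT, 0.0148% of 26976 for cKO against WT and 7.26% of 13375 for cHet against cKO.

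In cHet cortex the 6 genes were lower than in either other genotype wherever they were listed. Of the 6, 5 were listed as lower in cHet than in WT, where 0.789% of the genes tested were listed as lower, and all 6 as lower in cHet than in cKO, where that background was 4.14%. None was listed in cKO against WT, where 0.0111% of the genes tested were listed as lower. The genes were picked from these same comparisons, so these counts describe the choice and carry no weight as a test. At an adjusted p under 0.01, 4 members were lower in each cHet comparison, beside backgrounds of 0.285% against WT and 0.628% against cKO, and the same number passed Bonferroni adjustment (backgrounds 0.149% and 0.284%). With a minimum log2 change of 0.5, 5 and 6 were lower (0.731% and 3.75%), and with a minimum of 1, 1 and 2 were (0.388% and 1.14%). In bulk tissue, fewer neurons, less of each RNA per neuron and a different mix of dissected cells cannot be told apart. The litter of each embryo is not given, so litter cannot be told apart from genotype either.

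**Figure D1:**
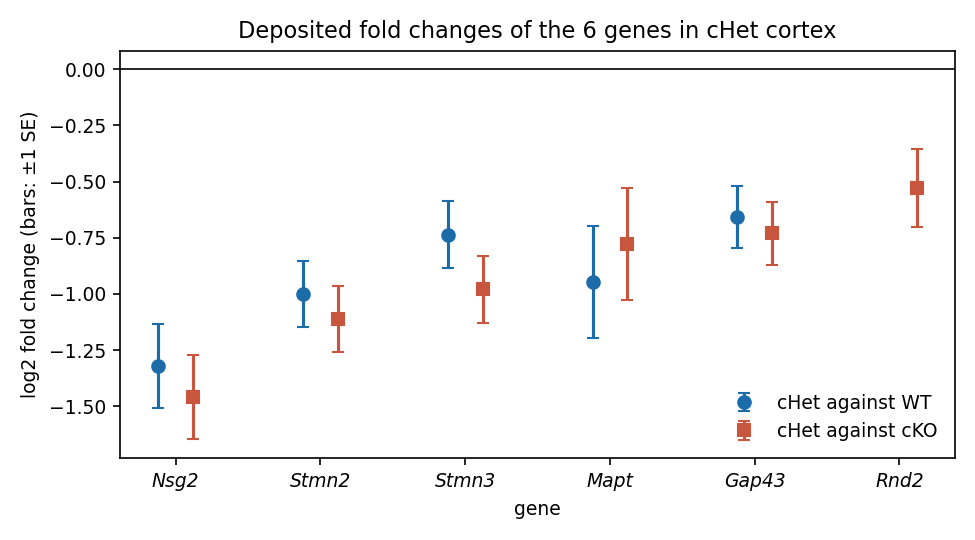
Log2 fold changes of the 6 genes in the authors' deposited tables (y axis), with circles for cHet over WT, squares for cHet over cKO and bars of 1 SE either side (3 libraries per group). All 11 points lie below 0, from -0.53 for Rnd2 to -1.46 for Nsg2, and Rnd2 has 1 point because it was listed only against cKO.

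Nsg2 had the largest decrease of the 6. It encodes a small membrane protein of endosomes and secretory vesicles in neurons, and lies on the plus strand of chromosome 11 (32000463 to 32059202, mm10). The authors' deposited table gave a log2 fold change of -1.32 (SE 0.19) for Nsg2 in cHet against WT, a ratio of 0.400 with a 95% interval of 0.310 to 0.517. Against cKO the authors' deposited table gave Nsg2 -1.46 (SE 0.19), a ratio of 0.364 with a 95% interval of 0.282 to 0.469. By adjusted p in the authors' deposited tables, Nsg2 ranked 2 of 248 genes against WT and 3 of 971 against cKO. Both ratios put Nsg2 RNA in cHet cortex under its level in the other genotypes, and the gene was chosen with these values known.

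Stmn2 and Stmn3 encode neuronal stathmins that are anchored to membranes of the Golgi and the growth cone. Stmn2 lies on the plus strand of chromosome 3 (8509360 to 8561606) and Stmn3 on the minus strand of chromosome 2 (181306459 to 181314500). For Stmn2 the authors' deposited tables gave log2 fold changes of -0.999 (SE 0.15) against WT and -1.11 (SE 0.15) against cKO, the second a ratio of 0.462. In cHet against WT the 95% interval of the Stmn2 ratio ran from 0.409 to 0.611. Stmn2 was chosen with these values known, so this interval carries no weight as a test of a decrease. The authors' deposited tables gave Stmn3 log2 fold changes of -0.74 (SE 0.15) against WT and -0.98 (SE 0.15) against cKO. The 2 values of Stmn3 differ by 0.24, the widest gap among the 5 genes listed in both cHet comparisons, and the SEs of the single values are 0.15.

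Mapt encodes the microtubule-associated protein tau, which is concentrated in axons. It occupies chromosome 11 from 104231390 to 104332090. The authors' deposited table gave Mapt a log2 fold change of -0.95 (SE 0.25) against WT, a ratio of 0.519. The authors' deposited table gave it -0.78 (SE 0.25) against cKO, a ratio of 0.583. Its SE was the largest of the 6 genes, and it ranked lower by adjusted p, at 116 of 248 and 638 of 971 in the authors' deposited tables. It was the only one of the 5 genes whose decrease was smaller against cKO than against WT, by 0.17 on the log2 scale, which is less than 1 SE.

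Gap43 encodes a growth cone phosphoprotein that is a substrate of protein kinase C and a classic marker of axon growth. It spans chromosome 16 from 42248442 to 42340651 on the minus strand. Its log2 fold change in the authors' deposited tables was -0.66 (SE 0.14) against WT and -0.73 (SE 0.14) against cKO, with ratios of 0.634 and 0.603. The decrease was the smallest of the 5 genes listed in both comparisons, and the pair of values differed by 0.07.

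Rnd2 encodes an atypical small G protein that binds GTP without hydrolysing it. In mouse cortex it is a target of the proneural factor Neurog2 and acts in the radial migration of new neurons. It lies on chromosome 11 from 101464999 to 101471853, on the same chromosome as Nsg2 and Mapt but megabases away from both. The authors' deposited table gave Rnd2 -0.53 (SE 0.17) in cHet against cKO, a ratio of 0.694 with a 95% interval of 0.548 to 0.879. Rnd2 was close to the listing limit, at rank 752 of 971 by adjusted p, 0.043 in the authors' deposited table (DESeq2). It was not listed against WT. Listing there took a statistic of at least 3.35 in size, and at the SE of Rnd2 that corresponds to 0.58 on the log2 scale. A decrease against WT as large as the one against cKO would thus have gone unlisted, and a difference between the comparisons is not shown for Rnd2.

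The order of the 6 decreases against cKO was Nsg2, Stmn2, Stmn3, Mapt, Gap43 and Rnd2. Nsg2 and Stmn2 were 0.35 apart on the log2 scale, more than their combined SE of 0.24. The other neighbours were 0.05 to 0.20 apart, each less than its combined SE of 0.21 to 0.29. The order is thus not resolved for any pair of neighbours, Nsg2 and Stmn2 included. Combined SEs take the fold changes as independent, although they come from the same libraries. The median log2 fold change of the members was -0.88 for the 6 listed against cKO and -0.95 for the 5 listed against WT. Over all genes listed as lower in the authors' deposited tables, the median was -0.82 against cKO and -0.99 against WT. The members' median thus sat near that of the other listed decreases in both comparisons.

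Where cKO stands beside WT was read from the difference of the 2 cHet fold changes, cHet over WT minus cHet over cKO, in the authors' deposited tables. Both comparisons use the same 3 cHet libraries, and the difference assumes unshrunken values of a single fit. The SEs of a gene in the 2 tables differed by at most 0.163% among the 5 genes. The log2 difference, cKO over WT, was 0.11 for Stmn2, 0.24 for Stmn3, 0.07 for Gap43, 0.14 for Nsg2 and -0.17 for Mapt. As ratios these run from 0.889 for Mapt to 1.18 for Stmn3. With the 2 cHet fold changes each moved by 1 SE in opposite directions, the difference ran through 0 for all 5 genes. It ran out to -0.67 for Mapt and 0.54 for Stmn3. Moved by 1 mean SE instead, only the difference of Stmn3 (mean SE 0.15) stayed clear of 0. These values settle neither a difference between cKO and WT nor its absence. Listing in cKO against WT took a statistic of at least 4.43 in size, and at their SEs that corresponds to a log2 change of 0.62 for Gap43, 0.65 for Stmn2, 0.66 for Stmn3, 0.83 for Nsg2 and 1.11 for Mapt. Smaller differences between cKO and WT, up to those sizes, were not detectable by that listing, and for Mapt even the change seen in cHet against WT would not have been listed.

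**Figure D2:**
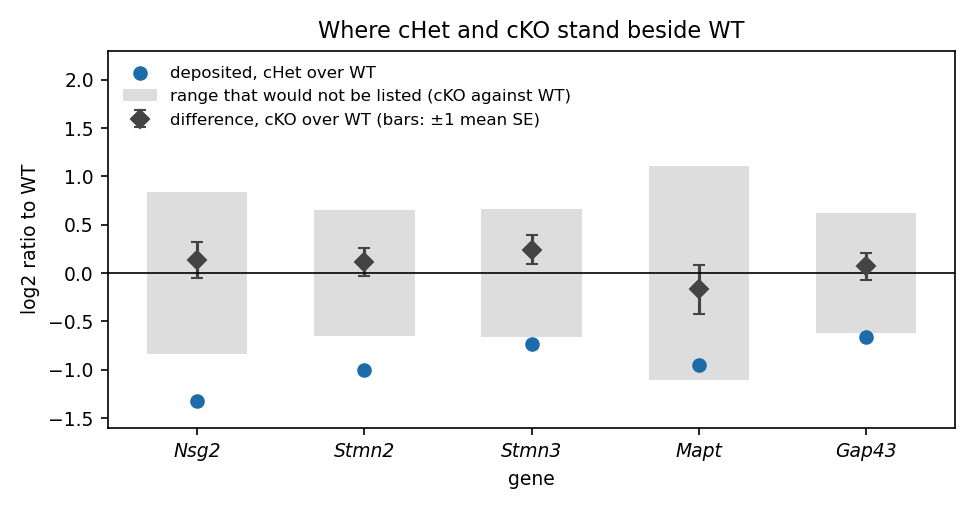
Log2 ratio to WT (y axis) of the 5 genes listed in both cHet comparisons, with circles for the deposited cHet over WT, diamonds for the cKO over WT difference with bars of 1 mean SE, and grey bars for the range that would not be listed in cKO against WT. The diamonds lie between -0.17 and 0.24, and the circles between -0.66 and -1.32, where that of Mapt is inside its grey range.

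The close relatives of the members were examined next. All 4 mouse stathmin genes were listed as lower in cHet than in cKO, where 4.14% of all genes tested were. Of the 4, Stmn2 and Stmn3 are members chosen with these values known, so only Stmn1 and Stmn4 add to them. Stmn1, the cytosolic stathmin that dividing progenitors also make, stood at -0.53 (SE 0.15) on the log2 scale by the authors' deposited table, and Stmn4, a brain stathmin, at -0.66 (SE 0.21). Against WT neither was listed, where the limits at those SEs were log2 changes of 0.50 for Stmn1 and 0.72 for Stmn4. The value of Stmn4 against cKO lies inside its limit, and that of Stmn1 lies just outside. Of the NSG family, Nsg1 stood at -0.35 (SE 0.11) against cKO by the authors' deposited table, a smaller decrease than that of Nsg2, and its paralog Caly was not listed. Rnd1 and Rnd3, the other Rnd GTPases, and Map2 and Map4, the relatives of tau, were listed in none of the 3 tables.

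Reads can be credited to the wrong relative only where sequences match, so the coding sequences were compared. Over aligned bases of the GENCODE M21 principal transcripts, Stmn2 was 73.6% identical to Stmn3, 71.9% to Stmn1 and 71.7% to Stmn4. The longest run of identical bases shared with Stmn2 was 43 for Stmn1, 21 for Stmn3 and 18 for Stmn4. The 60 coding bases in which the 4 genes are most alike are shown 5′ to 3′ because they are where such a mix-up would be likeliest, with capitals for bases that differ from Stmn2.

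Stmn2: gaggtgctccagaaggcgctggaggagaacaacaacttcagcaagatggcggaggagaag
Stmn3: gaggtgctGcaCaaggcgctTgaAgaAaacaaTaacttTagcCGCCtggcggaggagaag
Stmn1: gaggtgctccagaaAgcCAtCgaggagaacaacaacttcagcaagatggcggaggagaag
Stmn4: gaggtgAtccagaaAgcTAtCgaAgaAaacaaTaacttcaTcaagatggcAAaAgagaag

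Within this window Stmn1 differed from Stmn2 at 4 bases, Stmn3 at 11 and Stmn4 at 12. Of all 50-base words in the transcripts of each gene, 0% occurred in transcripts of another gene for Stmn3, Gap43, Mapt and Nsg2, and 0.893% did for Stmn2. For Rnd2 the share was 11.4%, most of it with Vat1, which overlaps it on the opposite strand and was not listed. Strandedness is not given in the sources used here, so reads from that overlap cannot be told apart. Nsg1 shared 15.6% of its words with Stx18, an overlapping gene on the opposite strand that was not listed. Stmn1 shared 17.9% with the pseudogene Gm11223, itself lower in cHet than in cKO by the authors' deposited table (log2 fold change -0.61, SE 0.19), so the value of Stmn1 is uncertain. Mapt has 3 overlapping annotated genes on the opposite strand, none of them listed.

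Other genes of the neuronal cytoskeleton and of neuronal differentiation were then read from 10 lists, which hold 126 genes besides the 6. In cHet against WT, 0 of the 126 were listed in the authors' DESeq2 comparison, where 1.60% of all genes tested were listed. Unadjusted values of unlisted genes were not analysed here. In cHet against cKO, 8 of the 126 were listed as lower (6.35%, background 4.14%) and 1 as higher (0.794%, background 3.12%). Here and for the lists below, shares are over all genes of a list, tested or not, while backgrounds are over the genes tested. The absence against WT is near the background of 1.60% for 126 genes. Decreases of the size that Nsg1 and Stmn4 had against cKO lay inside their limits for listing against WT, which were log2 changes of 0.37 and 0.72. Stmn1 and Tuba1a, with statistics of -3.53 and -3.69 against cKO, were past the size of 3.35 needed against WT. Tmsb10, Celf4, Srrm3 and Scrt1 fell short of it. The list around Rnd2 was shortened to the Rnd family after its values were seen, and these counts cover the genes that were kept.

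**Figure D3:**
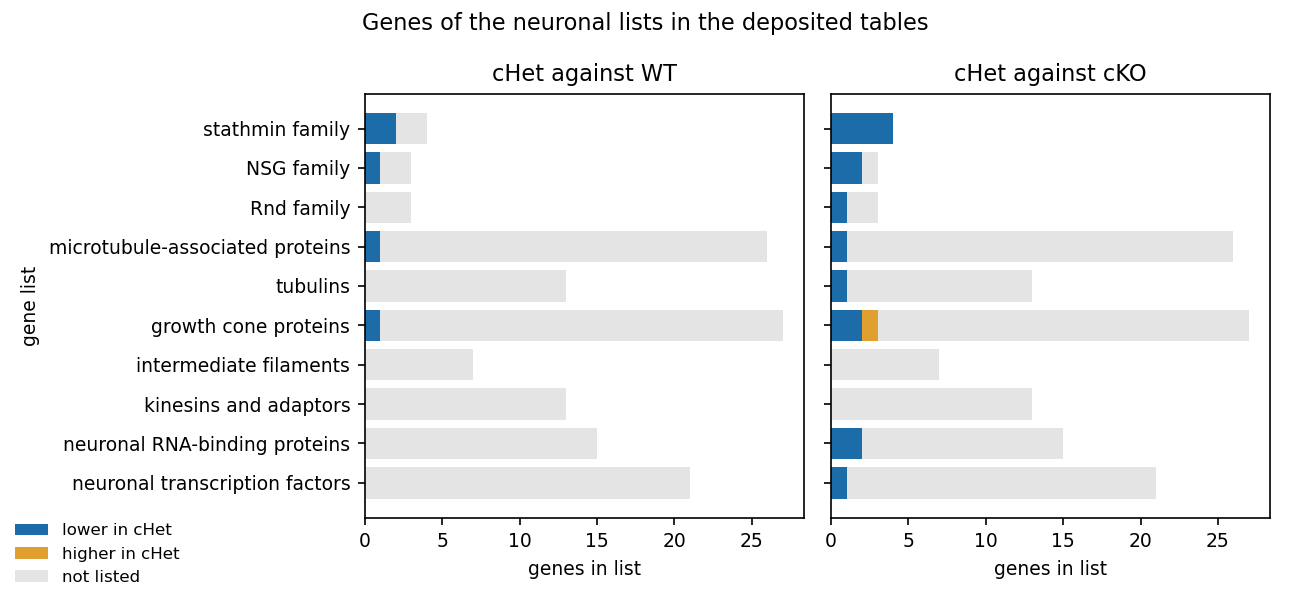
Number of genes (x axis) in each of the 10 neuronal lists (y axis) that the authors' deposited tables list as lower or higher in cHet or do not list, for cHet against WT (left) and cHet against cKO (right). The stathmin list is filled by decreases against cKO, with 4 of 4, but 2 of these are the chosen members Stmn2 and Stmn3. The other 9 lists hold 0 to 3 listed genes each in either comparison.

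Tubulins and the proteins that bind microtubules form the cytoskeleton on which the stathmins and tau act. Of 13 tubulin genes, 1 was listed against cKO (7.69%, beside 7.26% of all genes tested), namely Tuba1a, an alpha-tubulin abundant in young neurons, with -0.58 (SE 0.16) for cHet over cKO by the authors' deposited table. Of 26 microtubule-associated genes, the member Mapt alone was listed in either cHet comparison (3.85%, beside 1.60% against WT and 7.26% against cKO). Dcx, which encodes the migration protein doublecortin, Map2 and the neuronal tubulin gene Tubb3 were among those not listed. None of the 13 kinesin motors and adaptors and none of the 7 intermediate filament genes was listed in any of the 3 tables.

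Among 27 growth cone genes, 3 were listed in cHet against cKO (11.1%, beside 7.26% of all genes tested), and 1 of these is the member Gap43. Against WT, Gap43 alone was listed (3.7%, beside 1.60%). Tmsb10, which encodes an actin-sequestering thymosin, had -0.57 (SE 0.18) against cKO by the authors' deposited table. Dpysl2, which encodes the tubulin-binding protein CRMP2, went the other way, with 0.35 (SE 0.12) against cKO by the authors' deposited table. The 3 listed growth cone genes thus did not share a direction, and they are too few to set apart from the background.

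Of 15 neuronal RNA-binding protein genes, 2 were lower in cHet than in cKO (13.3%, beside 4.14% of all genes tested). Celf4 had -0.61 (SE 0.19) and the splicing regulator gene Srrm3 had -0.90 (SE 0.31) in the authors' deposited table. Of 21 proneural and neuronal transcription factor genes, Scrt1 was the only one listed (4.76% lower against cKO, beside 4.14%). Scrt1, a zinc finger repressor of newborn neurons, had -0.47 (SE 0.14) against cKO by the authors' deposited table. Counts of 1 or 2 genes are too small to set apart from the background. Neurog2, the known upstream regulator of Rnd2, was not listed in any of the 3 tables.

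**Figure D4:**
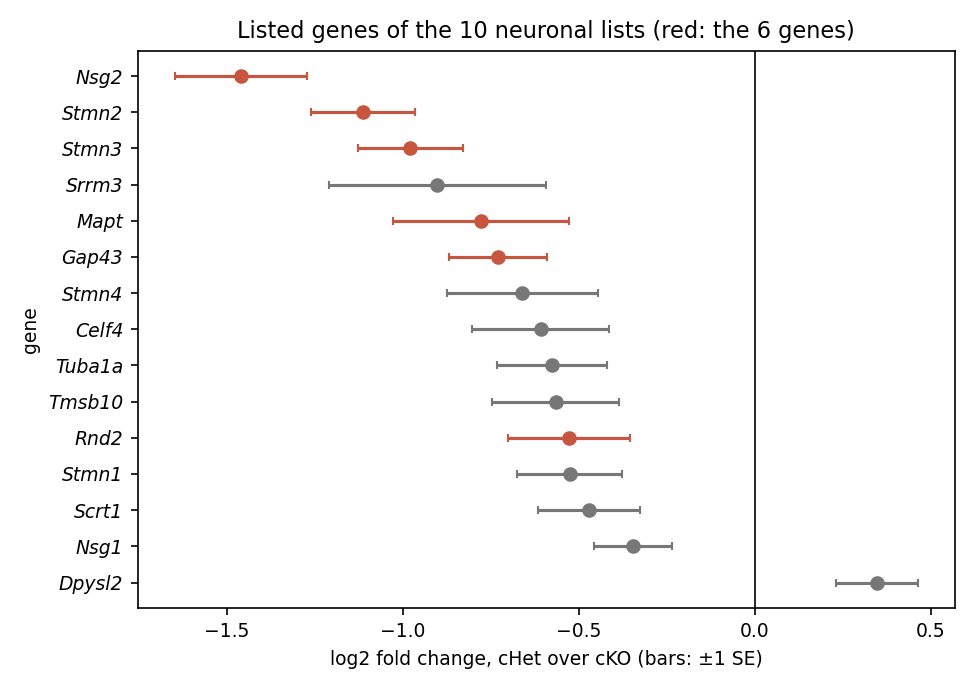
Log2 fold change of cHet over cKO in the authors' deposited table (x axis, bars of 1 SE either side) for the 15 genes of the 10 neuronal lists that were listed there (y axis), with the 6 members in red. 14 genes lie below 0, from -0.35 for Nsg1 to -1.46 for Nsg2, and Dpysl2 lies above it at 0.35.

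Markers of cell types that a cortical dissection can hold moved in the same comparisons, and their part in the decreases of the 6 genes was not tested. Levels were not analysed here, so only counts and fold changes can be set beside them. Over all genes tested, 0.789% were listed as lower and 0.815% as higher in cHet against WT, and 4.14% as lower and 3.12% as higher against cKO. Of 20 early cortical neuron markers, the 3 listed as lower against WT were Stmn2, Gap43 and Mapt, all members chosen with these values known. None of the other 17 was listed as lower in either cHet comparison. Fezf2, a transcription factor of deep-layer neurons and their progenitors, was higher against WT, with 0.65 (SE 0.13) in the authors' deposited table. Against cKO the same 3 were lower, and Fezf2 and Nfib were higher, with 0.64 (SE 0.13) and 0.49 (SE 0.17) in the authors' deposited table. None of 13 intermediate progenitor markers was listed in any table. Of 19 radial glia markers, 4 were higher (21.1%) and 1 lower (5.26%) in cHet against WT. Against cKO, 4 were higher (21.1%) and 2 lower (10.5%). Of 15 markers of Cajal-Retzius and preplate cells, Barhl2 was the only one listed, with -1.48 (SE 0.35) against WT and -1.66 (SE 0.35) against cKO by the authors' deposited tables. Of 24 ventral telencephalic and GABAergic markers, 8 (33.3%) were lower in each cHet comparison and none higher. Over the listed ones the median log2 fold changes were -5.01 against WT and -4.67 against cKO. These values are imprecise, with SEs of 0.87 to 1.51 for the single genes, beside 0.14 to 0.25 for the members. Among 20 endothelial and pericyte markers and 20 meningeal ones, 6 of each (30%) were higher in cHet than in cKO and none was listed against WT. Of 15 macrophage and 10 erythroid markers, 1 each was lower against cKO (6.67% and 10%) and none was listed against WT, counts too small to set apart from the background.

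The genes whose pair of fold changes was most like that of each member were found among the 190 genes listed in both cHet comparisons, by the sum of absolute log2 differences over the 2 comparisons. For Stmn2 these were Il18, which encodes a cytokine, and Bsn, which encodes the presynaptic scaffold bassoon, at distances of 0.09 and 0.11. For Stmn3 they were Serpini1, which encodes the neuronal protease inhibitor neuroserpin, and Fabp7, which encodes the fatty acid-binding protein of radial glia, at 0.03 and 0.08. For Gap43 they were the anchoring protein gene Akap6 and the growth factor gene Ptn, at 0.03 and 0.06. For Mapt they were Hecw1, which encodes a ubiquitin ligase, and Rab3c, which encodes a vesicle GTPase, both at 0.16. For Nsg2 they were the long non-coding RNA Sox2ot, at 0.16, and Elmod1, at 0.17. Genes of neurons, of radial glia and of other cells stood among the nearest by this measure, and the comparisons share the cHet libraries. The SEs of these genes were 0.13 to 0.35. By statistic in place of log2 fold change, 0 of the 2 nearest genes were kept for each member but Nsg2, so which genes are nearest is not settled.

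The 6 genes do not share a size or a place. They lie on chromosomes 2, 3, 11 and 16, and their merged exons run from 1136 bp in Stmn3 to 7531 bp in Mapt. Their median exonic length was 3073.5 bp, beside 3060.5 bp for the 482 protein-coding genes listed as lower in cHet than in cKO and 3488 bp for all 22028 protein-coding genes of GENCODE M21. Within 250 kb of the 6 genes, only the region around Rnd2 held other listed genes. Over all genes tested, 1.60% were listed against WT and 7.26% against cKO. The Rnd2 region was also the fullest, with 40 annotated genes beside 4 to 22 around the others, so its listed genes are not set apart from that background. There Arl4d, which encodes a small GTPase, had -1.86 (SE 0.50) against WT and -1.76 (SE 0.50) against cKO by the authors' deposited tables, and Coa3, which encodes a cytochrome c oxidase assembly factor, had -0.92 (SE 0.28) against cKO.

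Promoter sequences from RefSeq (GRCm38.p6, the assembly of mm10) were matched by symbol for 2 of the 6 genes, Nsg2 and Stmn3. Each window holds 250 bases before and 50 after an annotated start. They are shown because these genes moved together and because proneural basic helix-loop-helix factors bind E-boxes. Capitals mark each match to CAGNTG on either strand. The Nsg2 window is chr11:32000169-32000468 on the plus strand, and the Stmn3 window is chr2:181314451-181314750 on the minus strand.

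Nsg2: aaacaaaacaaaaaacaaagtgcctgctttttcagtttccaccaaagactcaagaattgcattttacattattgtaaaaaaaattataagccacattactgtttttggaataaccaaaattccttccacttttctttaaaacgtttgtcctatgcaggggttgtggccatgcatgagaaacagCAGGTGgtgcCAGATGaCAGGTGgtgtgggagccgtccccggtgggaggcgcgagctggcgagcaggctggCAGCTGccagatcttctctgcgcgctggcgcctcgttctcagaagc
Stmn3: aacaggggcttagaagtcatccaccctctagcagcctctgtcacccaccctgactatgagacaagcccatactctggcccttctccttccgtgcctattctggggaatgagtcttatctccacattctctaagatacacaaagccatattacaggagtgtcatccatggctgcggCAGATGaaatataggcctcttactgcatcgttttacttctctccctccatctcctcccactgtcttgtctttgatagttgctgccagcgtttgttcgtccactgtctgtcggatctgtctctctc

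The Nsg2 window held 4 matches, which began 67, 57 and 50 bases before the start and 4 bases after it. The Stmn3 window held 1, beginning 75 bases before the start. Of 32851 RefSeq promoter windows, 51.4% held at least 1 match and 5.16% held at least 3. Among 485 windows of genes listed as lower in cHet than in cKO the share with at least 3 was 2.89%. The share with at least 1 was 47.2% among those windows and 37.5% among 421 windows of genes listed as higher, both under the share over all windows. A second annotated start of Nsg2, 281 bases downstream, had 1 match in its window. The GC box GGGCGG, the TATA box TATAAA and CGACCACC, the core letters of a motif reported for human ZBTB7A, had no match on either strand in the windows of Nsg2 and Stmn3. The GC box was held by 35.7% of all windows, 57.3% of those of genes listed as lower and 67.5% of those of genes listed as higher. For the TATA box these shares were 13.6%, 7.63% and 6.89%. The ZBTB7A letters were in 0.338% of all windows, 0.206% of those of genes listed as lower, which is 1 window, and 1.43% of those of genes listed as higher, which is 6. The E-box matches describe these letters only and do not show binding.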

How the data were processed

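RNA sequencing of 9 polyadenylated libraries, 3 per genotype, was analysed from the authors' 3 comparison tables. Per the submitters' processing notes, reads were trimmed with cutadapt, counted with featureCounts on mm10 and compared with DESeq2. The sources used here give neither versions nor the aligner, annotation or strandedness. Per the file headers, the deposited values are log fold changes with their SEs, read as log2 because DESeq2 reports that base, a Wald score and an adjusted p-value. In every row the deposited score was within 1e-06 of the log2 fold change over its SE. Signs and direction words went together in each of the 248, 4 and 971 rows, and no gene of known change anchors the sign.

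The 6 members and the lists were chosen with earlier results of these data known, and the promoter motifs after the files were seen. No test of the members was made. 95% intervals are the log2 fold change plus or minus 1.96 SE. The number of genes tested was recovered as the number at which Benjamini-Hochberg adjustment of normal p-values gives the deposited ones, and in 20 of 20 simulations it was recovered exactly. The labels name each library as a separate animal and do not say which litter each came from. All identifiers were found in GENCODE M21, on the assembly of mm10. The list around Rnd2 was shortened to the Rnd family after its values were seen, because other genes in it are not reported here, and the counts over the lists leave those genes out. Named genes were the members, their direct paralogs, up to 4 listed genes per list and comparison by adjusted p, and the 2 nearest genes of each member listed in both cHet tables. Genes within 250 kb and unlisted neuronal genes were named after the tables were seen. Alternatives changed the adjusted p threshold to 0.01, set minimum log2 changes of 0.5 and 1, or used Bonferroni adjustment. Python 3.11.15, pandas 2.3.3, SciPy 1.17.1 and Biopython 1.88 were used.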

Additional observations from a re-analysis of the deposited data

How the results depend on the processing

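Depth and the spread between embryos could not be examined, since levels per library were not analysed here, and replicates could not be left out for the same reason. No paired analysis was possible because each row compares whole groups and carries no replicate numbers. At an adjusted p under 0.01 or by Bonferroni adjustment, 4 members stayed past the threshold against WT and 4 against cKO. A minimum log2 change of 0.5 kept 5 and 6, and a minimum of 1 left 1 against WT and 2 against cKO. No member was listed in cKO against WT at 0.01. For the 126 other genes of the neuronal lists against cKO, a threshold of 0.01 left 0 lower and 0 higher. A minimum of 0.5 left 6 lower and 0 higher. Over all genes tested, 0.628% were lower at 0.01 and 3.75% at the minimum of 0.5. The counts of lower genes are too small to set apart from that background. When each cHet fold change was moved by 1 SE so as to widen or narrow the cKO over WT difference, it ran from -0.18 to 0.41 for Stmn2, from -0.056 to 0.54 for Stmn3, from -0.21 to 0.35 for Gap43, from -0.67 to 0.33 for Mapt and from -0.24 to 0.51 for Nsg2, so its sign is not settled for any of them. By statistic in place of log2 fold change, 1 of the 2 nearest genes was shared for Nsg2 and 0 for the other 4 members, so the nearest genes depend on the measure. Without the 50 bases after the start, the first Nsg2 window held 3 E-box matches and the second held 0.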
